A study of Mus musculus with 4 samples.

Results

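The genes described here are those whose deposited symbol begins with Fbxo, Fbxw or Fbxl followed by a number, the naming series of the F-box proteins. The symbol rule matched 60 of the 17393 genes in the table. Of these, 59 are F-box genes (35 Fbxo, 9 Fbxw and 15 Fbxl genes). The remaining row, Fbxl12os, is a noncoding locus on the strand opposite that of Fbxl12, not a receptor. Its listed span does not overlap that of Fbxl12. The libraries were made from DS19 mouse erythroleukemia (MEL) cells, a transformed line blocked at an erythroid precursor stage. The 2 knockout libraries came from cells labelled Wdr26-/-, and the 2 wild-type libraries from cells labelled wild type. Both groups share the cell line and its medium, and the labels mention dimethyl sulfoxide for inducing differentiation without saying whether these cells had received it. The labels do not say whether the knockout cells were 1 clone or whether the libraries of a genotype were separate cultures, so the p-values reflect spread between libraries that may be technical only. In bulk RNA, fewer cells of a type and less RNA per cell cannot be told apart.

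F-box proteins are the interchangeable receptors of the SCF ubiquitin ligases. The F-box binds the adaptor Skp1, which docks on the cullin Cul1 and its RING partner Rbx1, while the rest of the protein holds the substrate. Fbxw proteins do this with WD40 repeats, Fbxl proteins with leucine-rich repeats and Fbxo proteins with other domains. In blood cells these receptors are known for the turnover of cell cycle regulators, transcription factors and iron regulators. Wdr26, the gene that was knocked out, is a WD40-repeat subunit of a different ubiquitin ligase, the CTLH complex.

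Values are FPKM, which corrects fragment numbers for the length of the transcript and the depth of the library, so levels of different genes can be set side by side. Steps in the lowest values put each library at roughly 26100000 to 26900000 fragments, an approximate figure. Wdr26 stood at 9 and 7.84 FPKM in knockout and at 55.4 and 52.4 FPKM in wild type. Of the 6 erythroid markers all were detected, and Gata1, the erythroid master regulator, stood at 525 and 451 FPKM in knockout and at 462 and 489 FPKM in wild type. The erythroid markers Alas2, Epor, Klf1 and Tfrc were lower in both knockout libraries, 4 of the 6, against 10.8% of all genes. The median log2 change of the list was −0.34. None passed the test (limma), and Tfrc alone had an unadjusted p under 0.05, as 11.4% of all genes did. The part of the lower erythroid markers in the F-box values was not tested. The 3 macrophage markers in the table summed to between 1.7 and 3.02 FPKM in a library, and the neutrophil, lymphoid and fibroblast markers each to under 1 FPKM, with Elane and Cd3e listed at 0 in every library. Megakaryocyte markers were present, led by Itga2b at 240 and 235 FPKM in knockout and at 215 and 232 FPKM in wild type, while Ppbp reached no more than 0.09 FPKM.

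MEL cells expressed most of the F-box genes in the table, most of them at moderate levels. With a requirement of at least 1 FPKM in at least 2 libraries, 44 members could be tested, comprising 25 Fbxo, 6 Fbxw and 13 Fbxl genes. Their means over the 4 libraries ran from 2.46 FPKM for Fbxl2 to 49.4 FPKM for Fbxw5, with a median of 12.4 FPKM, near the median of 11.6 FPKM over all 10670 genes tested. Of the 44 genes, 11 averaged at least 20 FPKM and 5 averaged under 5 FPKM. The WD40 receptors were the most abundant subfamily, with medians of 26.3 and 28.4 FPKM in knockout and 27.1 and 27.3 FPKM in wild type. The Fbxo genes had medians of 12.1 and 10.9 FPKM in knockout and 10.8 and 9.49 FPKM in wild type. The Fbxl genes had medians of 11.4 and 10.9 FPKM in knockout and 12.3 and 14.03 FPKM in wild type.

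**Figure D1:**
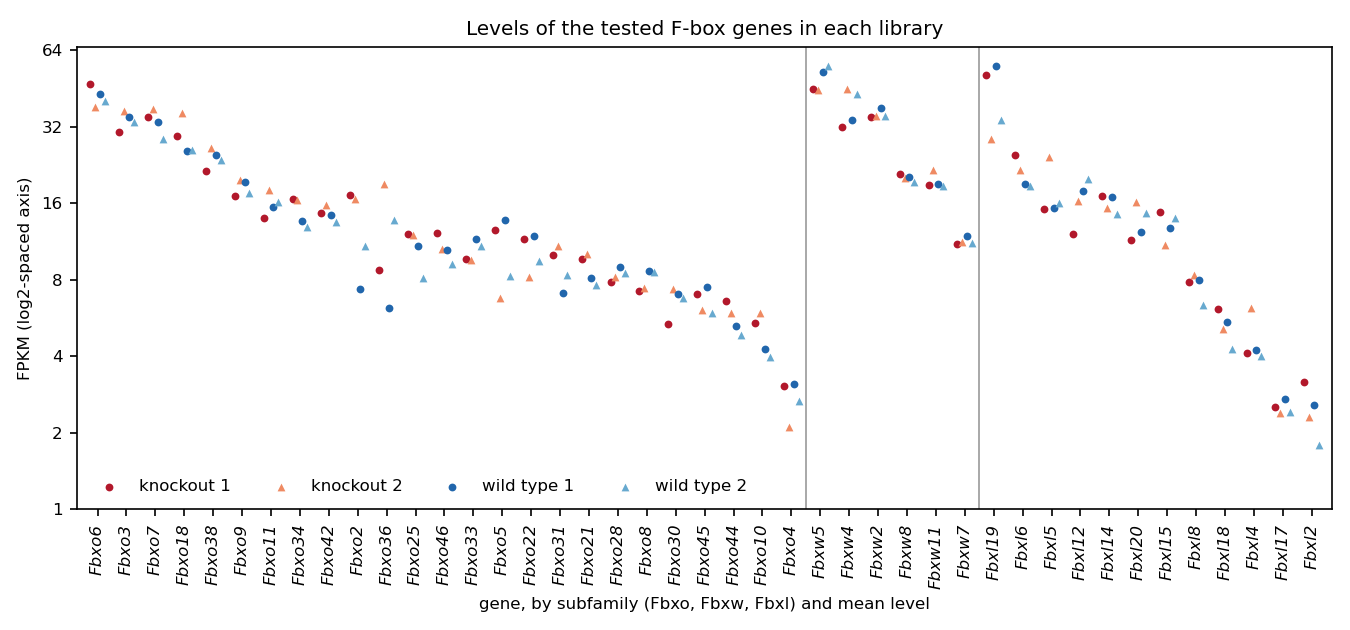
FPKM of the tested F-box genes, 1 of which is not shown (log2-spaced vertical axis) in the 4 libraries, grouped by subfamily and ordered by mean level; circles are libraries numbered 1 and triangles libraries numbered 2, in red for knockout and blue for wild type. Fbxw5, Fbxl19 and Fbxo6 head their subfamilies, and for Fbxl19, Fbxo5 and Fbxo36 the symbols separate by shape more than by colour.

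No F-box gene passed the test between knockout and wild type. Of the 44 members 0 had an adjusted p under 0.05 (limma on log2(FPKM + 1), Benjamini-Hochberg over all genes tested), where 0.0937% of all genes did. At an unadjusted p under 0.05 there were 3 members, Fbxo2, Fbxo31 and Fbxo10, or 6.82% of the members against 11.4% of all genes. The smallest adjusted p among the members was 0.216, for Fbxo2. The smallest two-sided p that exact permutation of 2 and 2 libraries allows is 0.333, and single genes were therefore left to limma. Without knockout library 1 the count of members past the threshold was 4 (Fbxo36, Fbxo2, Fbxl5 and Fbxl19) and without knockout library 2 it was 1 (Fbxo2), while in all genes 720 and 314 passed in the same fits, which take the spread of the remaining knockout library from the wild-type pair.

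Most changes were small. The log2 changes of the 44 genes ran from −0.40 (Fbxl12) to 0.85 (Fbxo2), with a median of 0.019 against 0.067 over all genes tested (−0.058 against −0.0095 with median-centred values), and 36 of them were under 0.3 in size. Only Fbxo2 had a log2 change of at least 0.5 in size, 2.27% of the members against 7.31% of all genes. The 95% interval of the change excluded a log2 change of 1 in either direction, about a doubling or a halving on this scale, for 42 of the 44, the exceptions being Fbxo2 and Fbxo36. For 15 of the 44 it also excluded a log2 change of 0.5. These intervals are for single genes and are not adjusted for their number.

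Both knockout libraries lay above both wild-type libraries for 12 members, against 29.9% of all genes, and below them for 6 members, against 10.8% of all genes. The groups thus did not overlap for 40.9% of the members and for 40.7% of all genes, so the members' share was close to the background. The split depended on scaling. After each library was centred on its median, 11 members were higher in both (19.9% of all genes) and 11 were lower in both (20.1% of all genes). The members higher in both without centring were Fbxo2, Fbxo31, Fbxo10, Fbxo34, Fbxo18, Fbxo21, Fbxl6, Fbxo25, Fbxo44, Fbxo7, Fbxo46 and Fbxo42. Those lower in both included Fbxl12, Fbxw5, Fbxo8, Fbxo33 and Fbxo28. Single libraries weighed on these counts, which ran from 13 to 24 higher and from 6 to 16 lower when 1 library was left out, because a single library spans no range. The matching shares of all genes are not given for these fits, so the ranges are not read as a result about the members.

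**Figure D2:**
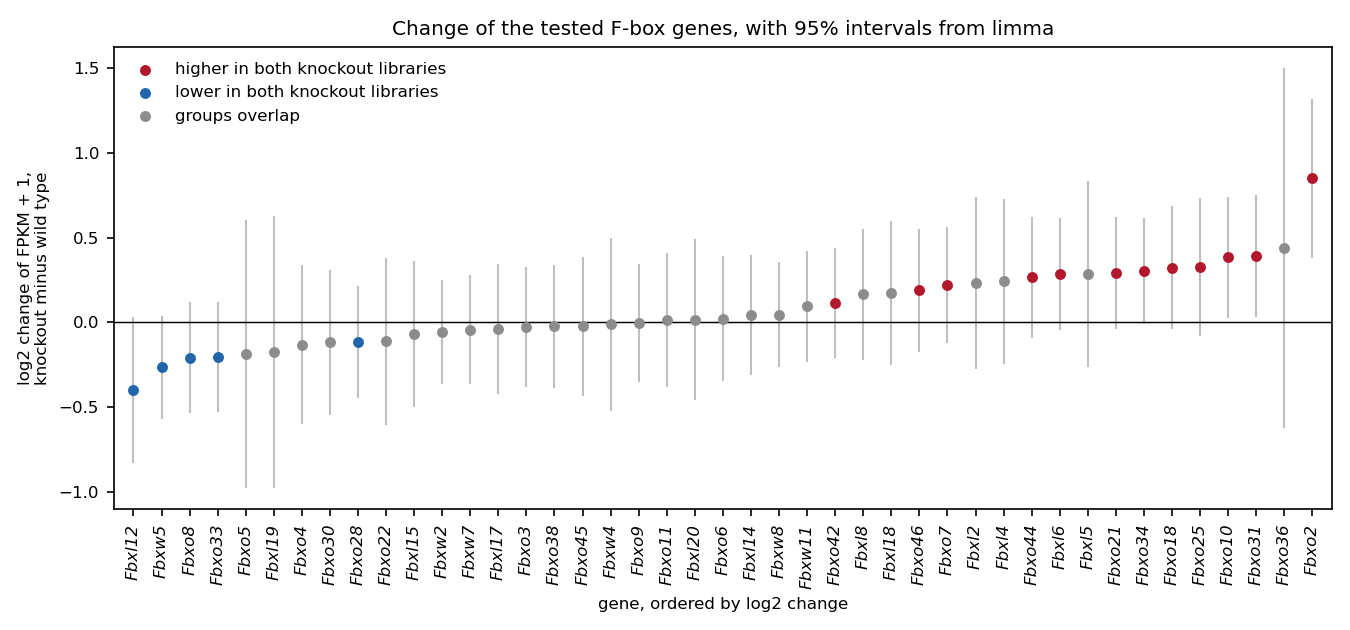
Log2 change of FPKM + 1, knockout minus wild type, for the tested F-box genes, 1 of which is not shown, with the 95% interval from limma as a vertical line; red points are higher and blue points lower in both knockout libraries, and grey points overlap. Most points lie within 0.3 of zero, and Fbxo2, at 0.85, stands apart at the right. The intervals of Fbxo2, Fbxo31 and Fbxo10 do not reach zero.

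Fbxo2 gave the largest difference of the family. It encodes Fbs1, a receptor that recognises high-mannose N-glycans and takes misfolded glycoproteins to degradation, best known from neurons. Fbxo2 (gene ID 230904, chromosome 4, 148160198 to 148166420, GRCm38) stood at 17.2 and 16.6 FPKM in knockout and at 7.36 and 10.8 FPKM in wild type. Both knockout values were above both wild-type values, and the wild-type pair was the more widely spread. The ratio of means was 1.86, and the log2 change was 0.85 with a standard error of 0.19 and a 95% interval from 0.38 to 1.32 (limma adjusted p = 0.216, unadjusted p = 0.0043). Without knockout library 1 the limma adjusted p was 0.0034 and without knockout library 2 it was 0.0027. Without wild-type library 1 it was 0.892, with a log2 change of 0.60, and without wild-type library 2 it was 0.353, with a log2 change of 1.10.

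Fbxo2 belongs to a row of related genes. Reading along chromosome 4, Fbxo6, Fbxo44 and Fbxo2 follow each other with no other protein-coding gene of the RefSeq table between them, the single run of adjacent F-box genes among the members. Fbxo6 (148145716 to 148152135, minus strand) encodes Fbs2, a second glycoprotein receptor, and Fbxo44 (148152799 to 148160183, minus strand) a relative with the same type of substrate-binding domain. Fbxo44 and Fbxo2 (plus strand) are transcribed away from each other, from start sites in the RefSeq promoter table that lie 574 bases apart. The sequences between these start sites are shown because the pair shares this short stretch, together with those before Fbxo31 and Fbxo10, the other genes at an unadjusted p under 0.05. They come from RefSeq promoters of GRCm38.p6 and were taken from the 250 bases before the start site listed farthest upstream, leaving out bases in an annotated exon and, for Fbxo44 and Fbxo31, bases inside the gene’s span. The Fbxo2 stretch lies inside the RefSeq span of Fbxo2, whose 5′ end is upstream of the start site used. Most of the Fbxo44 stretch lies inside that span too, because the RefSeq spans of Fbxo44 and Fbxo2 are 14 bases apart. Each is written 5′ to 3′ on the gene's strand, and capitals mark GC boxes (GGGCGG, bound by Sp1-type factors, on either strand) and the E-box CACGTG.
Fbxo2, chr4:148160483-148160620, plus strand: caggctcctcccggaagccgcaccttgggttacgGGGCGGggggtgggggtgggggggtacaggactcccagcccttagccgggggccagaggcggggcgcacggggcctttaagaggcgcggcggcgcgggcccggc
Fbxo44, chr4:148160184-148160315, minus strand: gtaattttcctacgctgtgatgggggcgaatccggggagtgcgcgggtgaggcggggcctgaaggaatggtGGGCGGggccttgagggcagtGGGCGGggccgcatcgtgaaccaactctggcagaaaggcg
Fbxo31, chr8:121578865-121579056, minus strand: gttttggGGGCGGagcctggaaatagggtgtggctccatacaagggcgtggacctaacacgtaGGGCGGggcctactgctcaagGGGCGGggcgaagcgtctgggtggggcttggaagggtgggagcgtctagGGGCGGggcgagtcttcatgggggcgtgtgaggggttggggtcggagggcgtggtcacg
Fbxo10, chr4:45084605-45084854, minus strand: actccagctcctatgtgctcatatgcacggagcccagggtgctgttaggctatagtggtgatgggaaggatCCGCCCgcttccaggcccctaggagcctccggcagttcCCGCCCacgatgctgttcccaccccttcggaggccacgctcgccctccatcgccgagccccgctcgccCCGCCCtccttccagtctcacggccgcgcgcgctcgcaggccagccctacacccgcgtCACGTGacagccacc

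The stretch before Fbxo2 held 1 GC box, that before Fbxo44 held 2, that before Fbxo31 held 4 and that before Fbxo10 held 3 with 1 E-box. These stretches were rich in G and C, at 77.5%, 65.9%, 67.2% and 68.4% in the same order, where the median of all promoters was 52.4%. A promoter was listed for 43 of the 60 members. In the 250 bases before any listed start site a GC box was found in 27 of 43 members against 35.4% of the 27025 genes with a promoter, which include noncoding genes. The CCAAT box (CCAAT) was found in 13 of 43 members and 37.5% of genes, and the E-box CACGTG in 2 of 43 and 6.86%. Erythroid GATA motifs (AGATAA or TGATAA) were found in 5 of 43 members, Fbxl18, Fbxo21, Fbxo4, Fbxo42 and Fbxo8, and in 18.8% of genes. The E2F motif TTTNNCGC was found in 2 of 43 and 4.94%. All motifs were searched on both strands, and a match is a description of these letters, not evidence of binding.

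The neighbours of Fbxo2 differed less between genotypes than Fbxo2. Fbxo44 stood at 6.60 and 5.92 FPKM in knockout and at 5.23 and 4.84 FPKM in wild type, a log2 change of 0.27 with an interval from −0.090 to 0.62 (limma adjusted p = 0.585). Its groups did not overlap. Fbxo6, the most abundant Fbxo gene, stood at 47.0 and 38.1 FPKM in knockout and at 42.9 and 40.6 FPKM in wild type, and its groups overlapped. Its log2 change was 0.022, which turned to −0.055 with median-centred values and to −0.035 without globin genes (limma adjusted p = 0.979). The flanking genes on either side were Mad2l2, at 30.7 and 30.8 FPKM in knockout and 28.5 and 25.1 FPKM in wild type, and Disp3, at no more than 0.08 FPKM. The other glycoprotein receptor in the table, Fbxo17, did not exceed 0.06 FPKM.

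**Figure D3:**
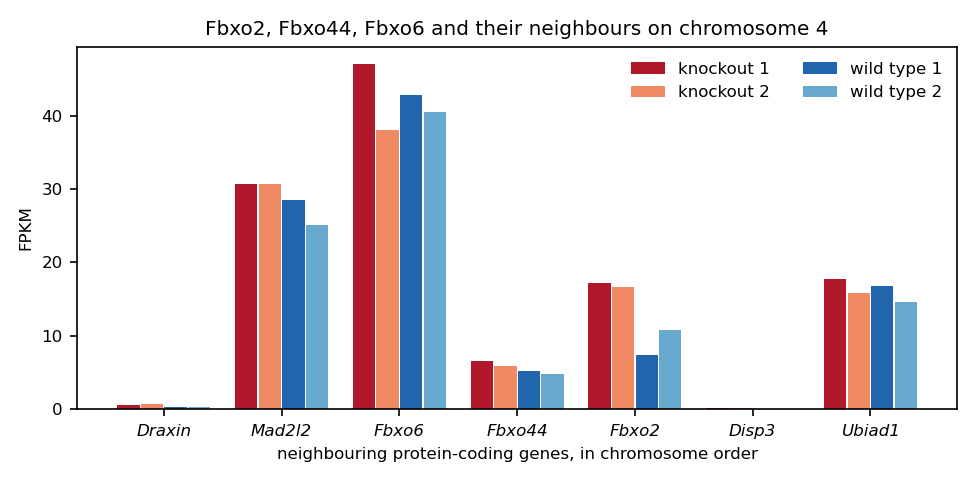
FPKM (bars from 0) of Fbxo6, Fbxo44 and Fbxo2 and of the nearest protein-coding genes on both sides, in chromosome order, for the 2 knockout libraries (reds, left) and the 2 wild-type libraries (blues, right). Fbxo2 bars stand at 17.2 and 16.6 FPKM in knockout and 7.36 and 10.8 FPKM in wild type, while Fbxo6 bars interleave.

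Receptors of the cell cycle and the centrosome did not pass the test. Of 8 tested genes 1 was higher (29.9% of all genes) and 3 were lower (10.8% of all genes) in both knockout libraries, with a median log2 change of −0.13. With median-centred values 1 was higher (19.9% of all genes) and 5 were lower (20.1% of all genes). Fbxo31 (chromosome 8, 121549443 to 121578864), which takes cyclin D1 to degradation after DNA damage, stood at 9.98 and 10.9 FPKM in knockout and at 7.10 and 8.34 FPKM in wild type. The groups did not overlap, and the log2 change was 0.39 (interval 0.032 to 0.75, limma adjusted p = 0.401, unadjusted p = 0.0371). Fbxw5, the most abundant member, is known for limiting centriole duplication through Sass6. It stood at 44.9 and 44.6 FPKM in knockout, below the 52.6 and 55.5 FPKM in wild type, a log2 change of −0.27 (interval −0.57 to 0.036, limma adjusted p = 0.503). Fbxl12, a receptor for Cdk inhibitors, had the lowest log2 change of the family, −0.40 (interval −0.83 to 0.030, limma adjusted p = 0.478). It stood at 12.1 and 16.3 FPKM in knockout and at 17.8 and 20 FPKM in wild type. Its value is uncertain, because 1890 of its exon bases are also exon of Ubl5, which runs the other way. The change was −0.20 when knockout library 1 was left out and −0.60 when knockout library 2 was. Fbxw7, the receptor for cyclin E, Myc and Notch, is named here after its values were seen. It stood at 11.0 and 11.2 FPKM in knockout and at 11.8 and 11.1 FPKM in wild type, with an interval from −0.36 to 0.28.

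Genes tied to DNA damage, p53 and chromatin, which include Fbxo44, had a median log2 change of 0.19. Both knockout libraries were higher for 3 of the 4 tested genes, against 29.9% of all genes, and for 2 of the 4 with median-centred values, against 19.9% of all genes. Fbxo18 (Fbh1), a DNA helicase that restrains homologous recombination, stood at 29.3 and 36.1 FPKM in knockout and at 25.6 and 25.99 FPKM in wild type. Both knockout values were higher, with a log2 change of 0.32 (interval −0.039 to 0.69, limma adjusted p = 0.498). The change was 0.47 when knockout library 1 was left out and 0.18 when knockout library 2 was. Fbxl19, a CxxC protein that binds unmethylated CpG islands, stood at 51.1 and 28.6 FPKM in knockout and at 55.5 and 33.9 FPKM in wild type. Its libraries numbered 2 were lower than those numbered 1 in both genotypes, and its log2 change was −0.18 (interval −0.98 to 0.63, limma adjusted p = 0.91). Without knockout library 1 the change was −0.58 (limma adjusted p = 0.0425) and without knockout library 2 it was 0.23 (limma adjusted p = 0.733).

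Fbxw11, a β-TrCP that binds phosphorylated β-catenin and IκB, stood at 18.9 and 21.5 FPKM in knockout and at 19.0 and 18.7 FPKM in wild type, with overlapping groups (limma adjusted p = 0.88). Its log2 change of 0.093 was 0.18 when knockout library 1 was left out and 0.0051 when knockout library 2 was.

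The iron and heme receptors overlapped between genotypes, all 3 of them, though with median-centred values Fbxl17 was lower in both knockout libraries. Fbxl5, which senses iron and takes the iron regulatory protein Ireb2 to degradation, stood at 15.2 and 24.4 FPKM in knockout and at 15.3 and 15.97 FPKM in wild type. Knockout library 2 alone stood apart, and the log2 change of 0.28 (interval −0.26 to 0.83, limma adjusted p = 0.734) was 0.61 without knockout library 1 (limma adjusted p = 0.0398) and −0.041 without knockout library 2 (limma adjusted p = 0.967). Fbxo22, a receptor for the heme-regulated repressor Bach1, stood at 11.6 and 8.17 FPKM in knockout and at 11.8 and 9.49 FPKM in wild type (log2 change −0.11, limma adjusted p = 0.907). Fbxl17, which removes mismatched BTB-domain dimers, stood at 2.52 and 2.39 FPKM in knockout and at 2.71 and 2.41 FPKM in wild type.

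Among receptors of mitochondria, the proteasome and erythroid maturation, Fbxo7 binds the proteasome regulator PI31 and is needed for normal red cell production in mice. It stood at 34.8 and 37.6 FPKM in knockout and at 33.3 and 28.6 FPKM in wild type. Both knockout values were higher, with a log2 change of 0.22 (interval −0.12 to 0.56, limma adjusted p = 0.644). Leaving out wild-type library 1 gave 0.33 and leaving out wild-type library 2 gave 0.12. Fbxo9, which acts on the Tel2 and Tti1 regulators of mTOR, stood at 17.1 and 19.7 FPKM in knockout and at 19.3 and 17.5 FPKM in wild type, with a log2 change of −0.0055. Fbxl4, which restrains mitophagy, and Fbxo11, known from human cells as a receptor for the chromatin repressor Bahd1 in erythroid maturation, completed this group. Both overlapped between genotypes, with log2 changes of 0.24 and 0.013.

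The signalling, apoptosis and trafficking group was the largest, with 11 tested genes, of which 2 lay higher (29.9% of all genes) and another 2 lower (10.8% of all genes) in the knockout pair. With median-centred values these counts were 2 and 3 (19.9% and 20.1% of all genes). Fbxo10 (chromosome 4, 45034248 to 45084604), a receptor for the survival protein Bcl2, stood at 5.41 and 5.91 FPKM in knockout and at 4.26 and 3.95 FPKM in wild type. The groups did not overlap, and the log2 change was 0.38 (interval 0.027 to 0.74, limma adjusted p = 0.408, unadjusted p = 0.039). The most abundant genes of the group overlapped between genotypes. Fbxo3, which targets the F-box protein Fbxl2, stood at 30.5 and 36.8 FPKM in knockout and at 35.0 and 33.4 FPKM in wild type. Fbxo38, known from T cells as the receptor for PD-1, stood at 21.5 and 26.4 FPKM in knockout and at 24.7 and 23.8 FPKM in wild type.

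Among members assigned to muscle or nerve, 1 of 3 in each group could be tested. Fbxo25, a relative of the muscle atrophy gene Fbxo32, stood at 12.1 and 11.99 FPKM in knockout and at 10.8 and 8.15 FPKM in wild type (log2 change 0.33, limma adjusted p = 0.552). Leaving out wild-type library 1 gave 0.51 and leaving out wild-type library 2 gave 0.14. Fbxo45, a synaptic receptor, stood at 7.01 and 6.06 FPKM in knockout and at 7.47 and 5.89 FPKM in wild type (log2 change −0.023, limma adjusted p = 0.981). Of the remaining abundant receptors, Fbxw4, named for a limb malformation locus, stood at 31.8 and 45.2 FPKM in knockout and at 34.0 and 43.0 FPKM in wild type. Fbxw2 stood at 34.9 and 35.3 FPKM in knockout and at 37.9 and 35.2 FPKM in wild type, and Fbxl6 at 24.8 and 21.7 FPKM in knockout and at 19.0 and 18.7 FPKM in wild type. Of these 3 genes only Fbxl6 had groups that did not overlap (log2 change 0.28, limma adjusted p = 0.521).

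For some members the library number went with a larger difference than the genotype. Across the 44 members the median absolute log2 difference was 0.18 between the knockout libraries and 0.11 between the wild-type libraries. The median absolute genotype change was 0.18. Over all genes tested these medians were 0.20, 0.17 and 0.15 in the same order. The library differences are between single libraries and the genotype change is between means of 2, so the sizes are not on 1 footing. Library 2 lay below library 1 in both genotypes, without overlap, for 11 members, or 25.0% of them against 33.0% of all genes, and above it for 5 members, or 11.4% against 12.5% of all genes. Fbxo5 and Fbxo36, named after their values were seen, were the clearest cases beside Fbxl19. Fbxo5 encodes Emi1, the inhibitor that holds the anaphase-promoting complex off during S and G2 phase. It stood at 12.5 and 6.77 FPKM in knockout libraries 1 and 2 and at 13.7 and 8.27 FPKM in wild-type libraries 1 and 2. Fbxo36 went the other way, at 8.75 and 19.0 FPKM in knockout libraries 1 and 2 and at 6.20 and 13.7 FPKM in wild-type libraries 1 and 2. Within each number the knockout library of Fbxo36 was the higher and that of Fbxo5 the lower. Neither gene passed the main test (limma adjusted p = 0.799 and 0.902). In a fit with the library number as a block, Fbxo36 passed (limma adjusted p = 0.0054) and Fbxo5 did not. That fit leaves each gene 1 residual degree of freedom, and 1863 of the 10670 genes passed it. What the library number stands for is not given in the labels, and the effect of the number itself was not tested.

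**Figure D4:**
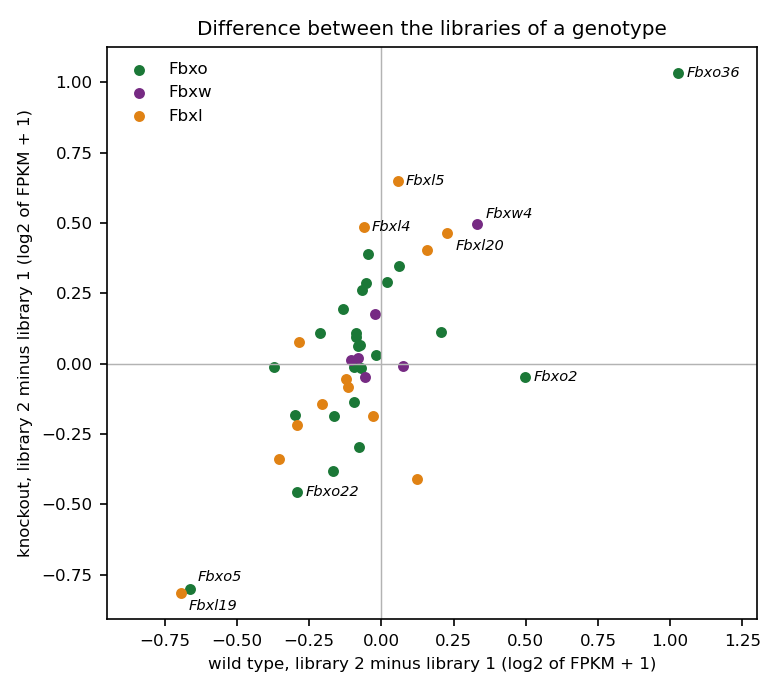
Log2 difference of FPKM + 1 between library 2 and library 1, in wild type (horizontal axis) and in knockout (vertical axis), for the 44 tested F-box genes, coloured by subfamily. Fbxo36 lies at 1.03 on both axes and Fbxl19 and Fbxo5 at the lower left, while Fbxl5 and Fbxl4 differ mainly between the knockout libraries and Fbxo2 mainly between the wild-type libraries.

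The rest of the SCF machinery was read from lists of pathway genes. Of the 23 genes of the SCF core and of neddylation, the modification that activates cullins, 0 passed the test (limma, adjusted p under 0.05). In limma 0 of the 23 had an unadjusted p under 0.05 (11.4% of all genes). Both knockout libraries were higher for 1 of them (29.9% of all genes) and lower for 5 (10.8% of all genes), and their median log2 change was −0.044 (0.028 without wild-type library 1). Nedd8, the modifier itself and the most abundant, stood at 213 and 140 FPKM in knockout and at 180 and 152 FPKM in wild type. Its log2 change of 0.064 turned to −0.013 with median-centred values. Cks2, a cyclin-dependent kinase subunit, stood at 119 and 123 FPKM in knockout and at 138 and 134 FPKM in wild type (log2 change −0.17, limma adjusted p = 0.707). The scaffold Cul1, given for its role, stood at 15.6 and 16.7 FPKM in knockout and at 18.02 and 16.7 FPKM in wild type. The adaptor Skp1a stood at 67.7 and 67.03 FPKM in knockout and at 76.2 and 66.01 FPKM in wild type, and the RING subunit Rbx1 at 45.9 and 38.4 FPKM in knockout and at 44.2 and 43.3 FPKM in wild type. For all 3 of these subunits the groups overlapped.

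The COP9 signalosome, which strips Nedd8 from cullins, had 0 of 9 tested genes past the threshold. In limma 0 of the 9 had an unadjusted p under 0.05 (11.4% of all genes), and the median log2 change of the complex was −0.0015. Its most abundant genes overlapped between genotypes, Cops6 at 68.3 and 56.7 FPKM in knockout and 60.2 and 57.6 FPKM in wild type, and Gps1 at 51.3 and 40.8 FPKM in knockout and 48.4 and 43.7 FPKM in wild type. F-box genes that carry other symbols had 0 of 7 past the threshold and 1 at an unadjusted p under 0.05 in limma (11.4% of all genes). That gene was the histone demethylase Kdm2b (Fbxl10), at 22.9 and 20.4 FPKM in knockout and 17.4 and 16.3 FPKM in wild type (log2 change 0.34, limma adjusted p = 0.419). Its relative Kdm2a stood at 32.9 and 37.6 FPKM in knockout and 37.9 and 35.2 FPKM in wild type, and cyclin F (Ccnf) at 38.2 and 31.7 FPKM in knockout and 40.7 and 35.4 FPKM in wild type. Of the other cullins 0 of 7 passed and 1 had an unadjusted p under 0.05 in limma (11.4% of all genes). This was the p53-binding Cul9, at 2.10 and 1.82 FPKM in knockout and 1.23 and 0.91 FPKM in wild type (log2 change 0.52, limma adjusted p = 0.374). Cul4a stood at 39.7 and 47.0 FPKM in knockout and 41.7 and 37.9 FPKM in wild type, and Cul3 at 20.5 and 21.7 FPKM in knockout and 22.1 and 20.6 FPKM in wild type.

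Genes whose proteins are SCF substrates, 26 of 33 tested, had 0 of 26 past the threshold and a median log2 change of −0.051. In limma 3 of the 26 had an unadjusted p under 0.05, where 11.4% of all genes did. Srebf1, the lipid synthesis regulator degraded through Fbxw7, was the most abundant and stood at 477 and 499.7 FPKM in knockout and at 856 and 857 FPKM in wild type. Each pair was tight and the groups were far apart, with a log2 change of −0.81 (limma adjusted p = 0.152, unadjusted p = 0.001). Without knockout library 1 or 2 the limma adjusted p was 0.047 and 0.0478, and without wild-type library 1 or 2 it was 0.594 and 0.51. The mitophagy receptor Bnip3 stood at 116 and 152 FPKM in knockout and at 163 and 222 FPKM in wild type (log2 change −0.52, limma adjusted p = 0.429). Its change was −0.33 when knockout library 1 was left out (limma adjusted p = 0.446), −0.71 for knockout library 2 (0.0381), −0.74 for wild-type library 1 (0.778) and −0.30 for wild-type library 2 (0.994). Pdcd4, a translation inhibitor degraded through β-TrCP, stood at 61.4 and 71.7 FPKM in knockout and at 51.7 and 52 FPKM in wild type (log2 change 0.35, limma adjusted p = 0.418). Ccnd3, cyclin D3, stood at 473 and 440 FPKM in knockout and at 409 and 427 FPKM in wild type.

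The anaphase-promoting complex and its activators, which Fbxo5 holds in check, had 0 of 16 genes past the threshold. In limma 0 of the 16 had an unadjusted p under 0.05 (11.4% of all genes), and the median log2 change of this list was 0.016. Its most abundant genes encode ubiquitin-conjugating enzymes. Ube2s stood at 287 and 269 FPKM in knockout and 263 and 280 FPKM in wild type, with a log2 change of 0.034 that turned to −0.043 with median-centred values and to −0.024 without globin genes. Ube2c stood at 148 and 107 FPKM in knockout and 146 and 133 FPKM in wild type. Of the 11 CTLH genes only Wdr26 itself passed (log2 change −2.55, limma adjusted p = 0.0063, becoming 0.0682 when wild-type library 1 was dropped and 0.0549 when wild-type library 2 was). Ranbp10, a scaffold subunit, had an unadjusted p under 0.05, at 97.2 and 114 FPKM in knockout and 131 and 147 FPKM in wild type (log2 change −0.40, limma adjusted p = 0.397), and Maea, a RING subunit, stood at 82.7 and 85.0 FPKM in knockout and 75.2 and 74.8 FPKM in wild type.

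**Figure D5:**
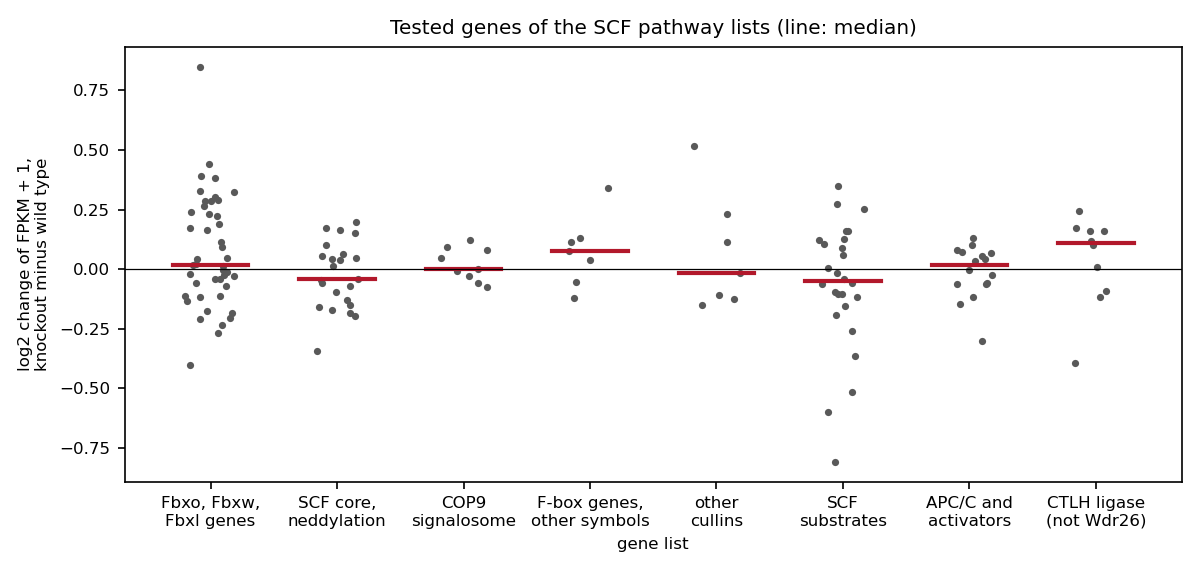
Log2 change of FPKM + 1, knockout minus wild type, of every tested gene in the F-box set and in the pathway lists (points, spread sideways for legibility), with the list median as a red line; Wdr26, at −2.55, is left out. The medians lie close to zero, and the points farthest from it are Fbxo2 at 0.85 and Srebf1 at −0.81.

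The remaining 16 members were too low to test. Fbxo48 stood at 0.76 and 0.61 FPKM in knockout and at 1.43 and 0.63 FPKM in wild type, and the noncoding Fbxl12os at 0.56 and 0.61 FPKM in knockout and at 0.63 and 0.65 FPKM in wild type. No other untested member exceeded 0.13 FPKM in a library, among them the muscle genes Fbxo32 and Fbxo40, the oocyte gene Fbxo43 and the neuronal genes Fbxo41 and Fbxl16. Fbxo16 and Fbxw9 were listed at 0 in every library, and an exact 0 in such a table can be a failed estimate. Transcripts assembled from the reads were part of the values of 17 of the 44 tested genes, Fbxl19 and Fbxo44 among them.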

How the data were processed

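RNA from 4 libraries, depleted of ribosomal RNA, was made into Illumina libraries, per the labels' protocols. The authors deposited 1 table with a value per gene and library. Its unit is not named, and the deposited values were taken as FPKM because their sums after weighting each gene by its length were nearly equal in the 4 libraries. TopHat2 and mm10 are named in the submitters' processing notes, while no source used here names the quantifying program. Whether strand was kept is not given either, so values of genes that share exons with an opposite-strand neighbour are uncertain. Beside Fbxl12 these include Fbxw4 (676 shared exon bases), Kdm2b (627 with Rnf34), Ube2c (592) and Bnip3 (504). Globin genes held 25.3% to 32.9% of the summed FPKM. The depth correction goes by fragments instead, and the globin share of the fragments was not computed. Whatever that share is, it enters the value of every other gene.

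Libraries were grouped by their titles. A gene was tested where 2 or more libraries reached 1 FPKM (10670 of 17393). Knockout and wild type were compared on log2(FPKM + 1) with limma 3.58.1 in R 4.3.3 (lmFit, eBayes with a trend, no covariates), with Benjamini-Hochberg adjustment over all genes tested and a threshold of 0.05. Log2 changes understate those of low genes, because 1 was added. The procedure was also run on simulated data, with independent noise in each library and planted changes larger than that of any tested member. That run does not tell how often changes of the members' size would be found. Lengths came from GENCODE M21 transcripts, and coordinates and promoters from RefSeq tables of GRCm38.p6 (mm10). Tables were made with pandas 2.3.3 and figures with matplotlib 3.10.9.

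The members, the pathway and role lists and the tests were chosen with earlier results of these data known. Genes named were Wdr26, members past the threshold or at an unadjusted p under 0.05, non-overlapping members with a log2 change of at least 0.5 in size, the 3 most abundant of each subfamily, the 2 most abundant of each role, and for each list those past either p with its 2 most abundant; others are marked where named or belong to a group described. Alternatives were median-centring, leaving out 11 globin genes with rescaling, no filter, a mean of at least 5 FPKM, a smaller pseudocount (0.1), a block for the library number, and leaving out each library. Values of 1 tested member and of 1 lymphoid marker are not reported here, though both enter the counts.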

Additional observations from a re-analysis of the deposited data

How the results depend on the processing

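That no F-box gene passed held with median-centred values, without globin genes, without the filter, with genes averaging 5 FPKM or more and with a pseudocount of 0.1, and the count ran from 0 to 4 with 1 library left out. Over all genes 10 passed, 21 without globin genes, 0 without the filter (1692 at an unadjusted p under 0.05), 2 when genes averaging under 5 FPKM were left out, and from 0 to 720 with 1 library left out (limma; 574 at an unadjusted p under 0.05 without either wild-type library). The cause was not tested. Members at an unadjusted p under 0.05 ran from 1 to 8 with 1 library left out, members higher in both knockout libraries from 13 to 24 and members lower in both from 6 to 16, where a group of 1 library overlaps less by construction. Among the fits with 1 library left out, the unadjusted count was highest without knockout library 1, for the members and for all genes. Its range is therefore not read as a result about the members. With median-centred values 11 members were lower in both. The median log2 change of the members was −0.058 with median-centred values and ran from 0.019 to 0.094 with 1 library left out, and that of the SCF core list was −0.12 and ran from −0.077 to 0.028.

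With the library number as a block 1863 of the 10670 genes passed, among them 6 of the 44 members (Fbxo2, Fbxo36, Fbxl12, Fbxo31, Fbxo18 and Fbxo10). An unadjusted p under 0.05 (limma) was found for 14 of the 44 members and for 3072 of the 10670 genes. Each gene then keeps 1 residual degree of freedom. The differences between libraries 1 and 2 of knockout and of wild type correlated at 0.606 over the 10670 genes, but 2 pairs are too few to show that the numbers pair the libraries and the labels do not say so.

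Of 398 values for 40 named genes under the alternatives, 342 kept their direction and side of the threshold, 18 newly passed, 3 no longer passed (all Wdr26, among them without the filter at an adjusted p of 0.0675) and 35 changed sign. All newly passing values came from the block for the library number or from leaving out a knockout library. With the block, the list genes Bnip3, Cul9, Kdm2b, Pdcd4, Ranbp10 and Srebf1 newly passed. Fbxo6 changed sign with median-centred values (−0.055) and without globin genes (−0.035), as did Ube2s (−0.043 and −0.024), and Nedd8 did with median-centred values (−0.013). With 1 library left out, the log2 change ran from −0.58 to 0.23 for Fbxl19, from −0.041 to 0.61 for Fbxl5, from −0.34 to 0.12 for Fbxo22, from −0.16 to 0.10 for Fbxo3, from −0.17 to 0.12 for Fbxo38, from −0.17 to 0.13 for Fbxo45, from −0.13 to 0.17 for Fbxo6, from −0.10 to 0.092 for Fbxo9 and from −0.26 to 0.24 for Fbxw4. It ran from −0.25 to 0.0091 for Ccnf, from −0.054 to 0.21 for Cops6, from −0.063 to 0.033 for Cul3, from −0.0036 to 0.23 for Cul4a, from −0.17 to 0.15 for Gps1, from −0.15 to 0.039 for Kdm2a, from −0.23 to 0.36 for Nedd8, from −0.38 to 0.083 for Ube2c and from −0.012 to 0.080 for Ube2s. Without a sign change it ran from −0.11 to −0.0042 for Fbxw2, from 0.19 to 0.38 for Fbxl6, from 0.076 to 0.18 for Ccnd3 and from 0.24 to 0.46 for Pdcd4. Depth differed little between libraries and is known only approximately, so no interval from counts was computed.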
